A study of Mus musculus with 2 samples.

Results

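The Hist1 windows are 2 stretches of mouse chromosome 13 that hold short, densely packed loci in the region known for the replication-dependent histone genes. On the mm9 build they run from 21800000 to 21940000, called the proximal window here, and from 23600000 to 23860000, called the distal window. The members were chosen by position and length alone: every row of the authors' deposited table whose locus overlaps a window and spans at most 5000 bases. This gave 48 rows at 43 loci, of 55418 rows at 24214 loci in all, with 22 rows in the proximal and 26 in the distal window. A further 6 rows at 3 loci lay in the distal window but were longer.

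Replication-dependent histone genes encode the core histones H2A, H2B, H3 and H4, around which DNA is wound into nucleosomes, and the linker histone H1, which binds between nucleosomes. Cells switch these genes on together in S phase, when newly copied DNA needs new nucleosomes. The genes are small and have no introns, and they occur in many near-identical copies. Their mRNAs normally end in a stem-loop in place of a poly(A) tail. Whether the sequenced RNA was selected by that tail was not examined here. The values below therefore need not reflect all mRNA of these genes.

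The RNA came from mouse embryos of embryonic day 9.5 with 21 to 25 somites, bred from mTmG and Grhl3-cre mice, both on a C57BL/6 background. In these embryos Cre made under Grhl3, a gene of the non-neural ectoderm, turns a red membrane reporter green. Both groups came from embryos of this cross. One pool was the GFP-positive cells, labelled non-neural ectoderm, and the other the RFP-positive cells, labelled as what was left of the neural tube, both sorted after surrounding tissue had been cut away. RNA of 25 embryos was pooled and each pool gave 1 library, so there is no replicate spread and every p-value compares 2 libraries, not 2 cell populations. The deposited comparison names its conditions only q1 and q2, which match neither pool's labels. All fold changes below are therefore those of q2 against q1, positive or negative as deposited, with no direction between the pools, and the abundances per condition were not used. Library depth is unknown from the columns used. No marker of either tissue was checked: the rows carry no gene names, and markers were not looked up by position.

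The rows of the windows have IDs without gene symbols, and 0 of them matched the gene names at hand. The label was therefore checked by locus span, the end minus the start of a locus. In the GENCODE M21 annotation of GRCm38, a later build whose coordinates were not used, all 11 Hist1 genes for H4 have a coding length of 312 bases and all 9 for H3 one of 411. The commonest coding length is 381 bases for H2B, shared by 14 of 15 genes, and 393 for H2A, shared by 11 of 13. Exactly these spans recur among the members: 7 loci spanned 312 bases, 5 spanned 381, 4 spanned 393 and 2 spanned 411. These 18 loci were 18 of the 19 member loci between 250 and 450 bases long. Outside the windows, 8 of the 77 loci in that range had one of the 4 spans. On chromosome 13 as a whole, 18 of the 20 loci with such a span, or 90%, lay in the windows. One further member, from 21871751 to 21872423, spanned 672 bases, which is the coding length of 1 of the 6 Hist1 genes for H1.

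**Figure D1:**
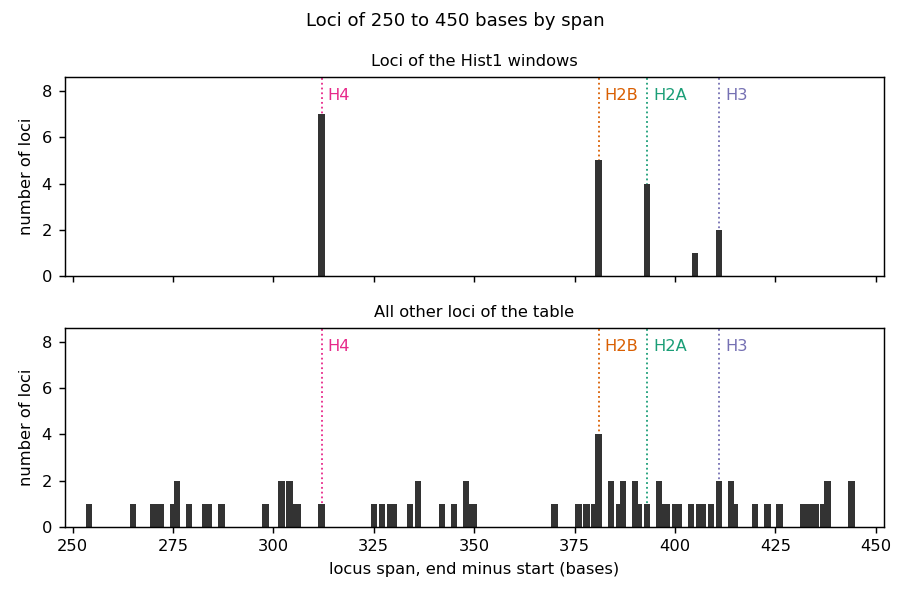
Number of loci (vertical axis) at each span from 250 to 450 bases (horizontal axis, end minus start), for member loci above and for all other loci of the table below; dotted lines mark the commonest coding length of each core histone class. Member loci stack on the 4 lines, with 7 at 312, 5 at 381, 4 at 393 and 2 at 411 bases. Elsewhere the same lines hold 1, 4, 1 and 2 loci, and the 4 at 381 bases are the most at any span.

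A shared span describes a locus and does not name its gene. In the same annotation, 75 genes with a single exon have one of these 4 coding lengths, and 55 of them are histone genes. Members are therefore called H2A-span, H2B-span, H3-span and H4-span below. The other 30 members have other lengths, up to 3788 bases, and can include histone genes annotated with untranslated ends as well as other genes.

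Most members were tested by the authors' tool. The authors' deposited table marks 36 of the 48 members as tested, or 75%, against 53.1% of all rows and 26.4% of the 9156 other rows of at most 5000 bases. Of the 34 members of at most 1000 bases, the authors' deposited table marks 30 as tested, or 88.2%. Other rows of 300 to 1000 bases were tested in 141 of 1564 cases, or 9.02%. Their median length was 934.5 bases, against 408 for the members of at most 1000 bases. Of the 8 loci outside the windows with one of the 4 core histone spans, 4 were tested, or 50%. The tested share was 23 of 26 in the distal window, or 88.5%, and 13 of 22 in the proximal window, or 59.1%. No tested member had a ratio against 0, where 4.30% of all tested rows did.

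None of the 36 tested members was called different between q1 and q2 in the authors' deposited table, where 0.803% of all tested rows were called. The deposited p-value was at most 0.05 for 2 members, against 3.10% of all tested rows. The q-value was 0.628 for 1 member and 0.999983 for the other 35 in the authors' deposited table. The median error of a member's log2 fold change, taken as its size over that of its test statistic, was 0.85, and 12 members had an error over 1 log2 unit. Only 10 of the 36 fold changes were larger than their own error, and 1 was over 2 times its error. A 2-fold difference of a single member is thus about the size of its error.

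The finite fold changes leaned to the positive side. Of the 36 tested members, 28 were positive and 8 negative in the authors' deposited table, or 77.8% positive, against 50.5% of all tested rows with a finite value and 52.9% of other such rows of at most 5000 bases. The members' median was 0.28 on the log2 scale and their quartiles were 0.05 and 0.78, beside a median of 0.0046 over all tested rows and 0.03 over the other short rows. Other tested rows of 300 to 1000 bases also leaned positive, at 60.4% with a median of 0.09. So did the 4 tested loci of core histone span outside the windows, at 75% with a median of 0.46. The 4 tested longer rows of the distal window were 75% positive, with a median of 0.22. Tested members of at most 1000 bases were 80% positive, with a median of 0.27. Genes of near-identical sequence can share reads, so the 36 values may not be independent, and no test of the list was run. At least 2-fold differences were positive for 6 members, or 16.7%, and negative for 3, or 8.33%. The corresponding shares over all tested rows with a finite value were 7.66% positive and 5.70% negative. Over other such rows of 300 to 1000 bases they were 10.4% positive and 7.46% negative. Of these 9 members, 8 had an error over 1 log2 unit.

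**Figure D2:**
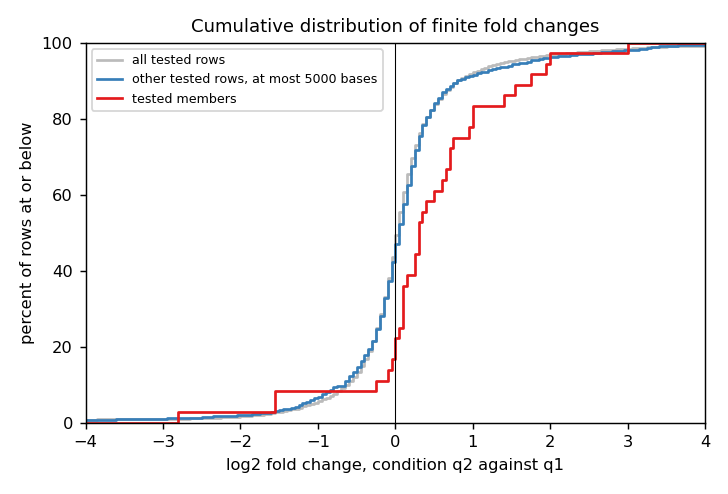
Percent of rows (vertical axis) with a log2 fold change of q2 against q1 at or below the value on the horizontal axis, for tested members, other tested rows of at most 5000 bases, and all tested rows with a finite value. The member curve lies to the right of the others over most of its course, with a median of 0.28 against 0.03 and 0.0046, and crosses them at both ends.

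The tested members that were at least 2-fold negative lay in the proximal window. In the distal window 20 of 23 tested members were positive in the authors' deposited table, the median was 0.29, and the lowest value was -0.14. The proximal window had 8 positive and 5 negative members, a median of 0.22, and all 3 tested members that were at least 2-fold negative. These 3 include a pair with near-equal values, described below, and their errors were 1.55, 1.44 and 1.55. They were 23.1% of the 13 tested members there, where 5.70% of all tested rows with a finite value were that far negative. At least 2-fold positive members were 15.4% in the proximal and 17.4% in the distal window. One untested member of the distal window, starting at 23787679, was also past 2-fold negative, at -2.07 in the authors' deposited table. Distal values ran up to 2.96 and proximal values from -2.85 to 1.998, so the windows overlap. The difference between the windows was not tested. Errors were also larger in the proximal window, with a median of 1.02 against 0.78.

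**Figure D3:**
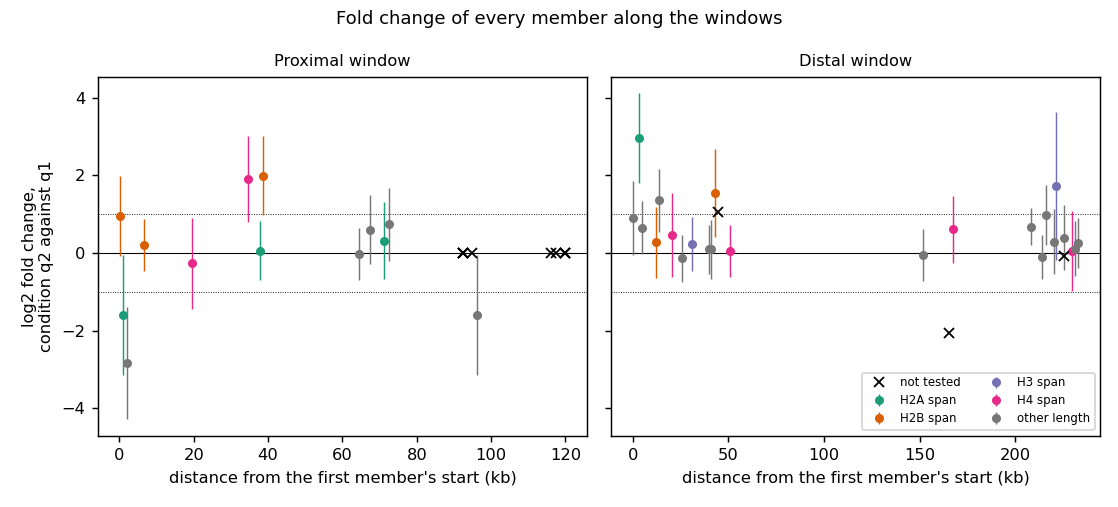
Log2 fold change of q2 against q1 (vertical axis) for each member by distance from the first member of its window (horizontal axis, kb); points are tested members with their error, coloured by span, crosses are untested members, and dotted lines mark 2-fold. The tested points below -1 are all in the proximal window, and the crosses at 0 sit together at its high-coordinate end.

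H2A forms a dimer with H2B on the outside of the nucleosome core. The 4 H2A-span loci were all tested, with values from -1.59 to 2.96 among members that ran from -2.85 to 2.96. The highest was uc007ptw.1, in the distal window from 23625779 to 23626172, with a log2 fold change of 2.96 in the authors' deposited table, a 7.77-fold difference. Its error was 1.16, and the authors' deposited table gave p = 0.0107 and q = 0.628. This was the largest positive value among the members and the one that exceeded 2 errors. The lowest H2A-span locus was uc007prb.1, from 21808290 to 21808683, where the authors' deposited table gave -1.59, an error of 1.55 and a p-value of 0.305. The remaining H2A-span loci, starting at 21845303 and 21878694, had values of 0.06 and 0.32 in that table. Loci of the same span thus lay on both sides of 0, and none was called.

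H2B is the partner of H2A in that dimer. All 5 H2B-span loci had positive values in the authors' deposited table, from 0.22 to 1.998, with a median of 0.96. Of all tested members, 77.8% were positive. The highest H2B-span locus was uc007prh.1, from 21845991 to 21846372, for which the authors' deposited table gave 1.998, a 3.995-fold difference, with p = 0.0504 and q = 0.999983. Its error was 1.02. The locus starting at 23665678 had a value of 1.54 with an error of 1.13. The locus at 21807631 followed with 0.96 and an error of 1.03. The last of the 5, starting at 23634840 and 21813966, had 0.28 and 0.22 in the authors' deposited table, both well within their errors of 0.91 and 0.67. The spread within the class is of the size of the errors. Outside the windows, the tested 381-base loci on chromosome 13 had -0.11 and 0.19. The span classes were set after seeing the values.

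H3 and H4 form the central tetramer of the nucleosome. The authors' deposited table gave the 2 H3-span loci, both in the distal window, values of 0.23 with an error of 0.70 and 1.74 with an error of 1.91. The second had the largest error of any tested member. Of the 7 H4-span loci 6 were tested, with 5 positive and 1 negative value and a median of 0.26 in the authors' deposited table. The highest started at 21842062, at 1.90 with an error of 1.10 and a p-value of 0.0844, and the lowest started at 21826964, at -0.27 with an error of 1.17. The values of the other 4 lay between 0.05 and 0.61 in the authors' deposited table. H4 genes encode the same protein from many copies, and only the highest of the 6 values exceeded its own error.

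**Figure D4:**
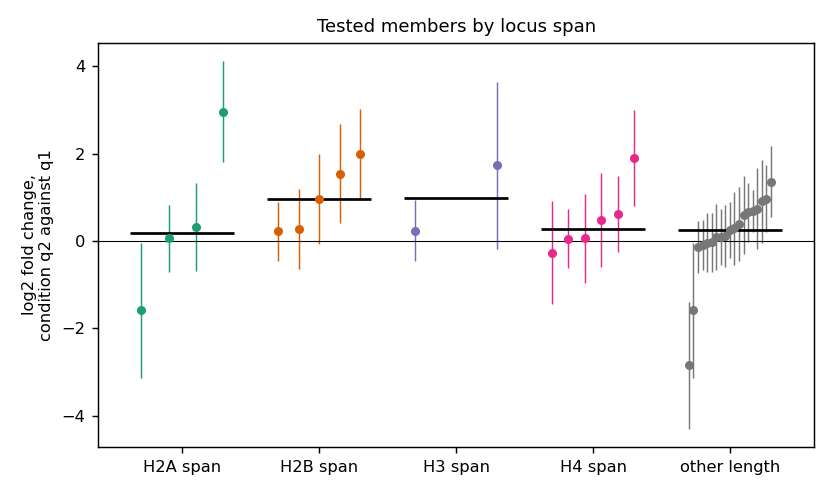
Log2 fold change of q2 against q1 (vertical axis) of the 36 tested members grouped by locus span (horizontal axis), each point with its error and a black line at the group's median. The H2B-span loci all lie above 0, between 0.22 and 1.998, and 28 of all 36 points are positive. H2A-span loci run from -1.59 to 2.96, and the error bars overlap across the groups.

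The H1-length locus at 21871751 was among the flattest, with a log2 fold change of -0.03 and an error of 0.68 in the authors' deposited table. Of the 19 tested members of other lengths, this one included, 13 were positive and 6 negative, with a median of 0.26. The smallest error of any member, 0.48, belonged to the locus from 23830675 to 23832236, for which the authors' deposited table gave 0.68 with a p-value of 0.154. The locus from 23635920 to 23636923 had 1.36 with an error of 0.81 and a p-value of 0.0932. Among tested members, it was the only locus past 2-fold with an error below 1. The largest negative value of all members was that of uc007prc.1, from 21809496 to 21809984, at -2.85, a 7.20-fold difference. Its error was 1.44, and the authors' deposited table gave p = 0.0486 and q = 0.999983. It lies next to uc007prb.1, the negative H2A-span locus, and the H2B-span locus on the other side of uc007prb.1 was positive at 0.96.

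One pair of distant members had almost the same values. The locus from 21903614 to 21904019, which spans 405 bases, had a log2 fold change of -1.59 in the authors' deposited table, as did uc007prb.1, 393 bases long. Between them the fold changes differed by 0.00014 and the test statistics by 8e-05. Ranked by the larger of these differences, the next closest pair of tested members differed by 0.0080. Both folds were 3.003, and both errors were 1.547. Whether both loci of the pair draw on the same reads was not tested. How many reads each locus had is also unknown here, since the abundances were not used.

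The untested members listed at 0 fell into a block at the high-coordinate end of the proximal window. Of the 12 untested members, 9 had a fold change listed as 0 with a p-value of 1 in the authors' deposited table, and all 9 lay at 5 loci between 21898280 and 21929399. The outer loci of the block mirrored each other in span, and the inner ones did not. The outermost loci, from 21898280 to 21902068 and from 21925611 to 21929399, both spanned 3788 bases and listed 3 rows each. Each was followed inwards, after a gap of 167 bases, by a locus of 514 bases, from 21902235 to 21902749 on one side and from 21924930 to 21925444 on the other. The fifth locus was an H4-span locus starting at 21923715. The 1 tested member inside the block was the 405-base locus with the value of -1.59. The spans of these 4 outer loci and the gap thus recur in opposite order, while the inner loci spanned 405 and 312 bases. The sequence of the block was not used here.

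The remaining 3 untested members lay in the distal window and had finite values in the authors' deposited table. They were 1.06 for the locus starting at 23666339, -2.07 for that at 23787679 and -0.08 for 1 of the 2 rows at 23847690. The other row at that locus was tested and had 0.39. The 6 longer rows of the distal window included no call: the 4 that were tested had values of 0.21, 0.22, 0.66 and -0.14 in the authors' deposited table, and none was called.

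Loci of core histone span outside the windows were few. Of these 8 loci, 4 were tested, and the authors' deposited table called none of them. On chromosome 13 the 2 such loci, of 381 bases and starting at 22127755 and 22135098, had log2 fold changes of -0.11 and 0.19 in the authors' deposited table. The 411-base locus on chromosome 3, starting at 96072616, had 1.47 with an error of 1.25, and the 312-base locus on chromosome 6, starting at 136752588, had 0.73 with an error of 0.90.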

How the data were processed

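RNA of 2 sorted pools was sequenced, with 1 library each. TopHat 1.3.2, Cufflinks 2.0.2 and Cuffdiff were used on mm9, per the submitters' processing notes. Annotation and settings: not given in the sources used here. One table was deposited by the authors, with a log2 fold change and a test statistic, a score, for each row, with placeholders for ratios against 0. Each row's p-value and q-value were also deposited by the authors. The 2 abundance columns match no sample's labels and were not used. Members were found by locus. Counts, medians and quartiles were computed over tested rows with a finite value. Counts of members, tested rows, 2-fold differences and ratios against 0, and the median error, were checked on simulated data. Medians and quartiles of the fold change were not. Coordinates are as the file gives them. Coding lengths came from GENCODE M21. No sequence was printed, because no member could be matched by name. Members named by ID are the 2 largest positive and 2 largest negative tested values, since none was called. Members and lists were chosen with earlier results of these data known, and the span classes after seeing the values. Gene lists by symbol could not be applied. Python 3.11.15, numpy 2.4.6, pandas 2.3.3 and matplotlib 3.10.9 were used.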

Additional observations from a re-analysis of the deposited data

How the results depend on the processing

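Leaving out a replicate was not possible with single libraries, and the planned settings on abundances were not run because those columns were not used. No member was called under any length limit, at single-row loci or at a deposited q-value of at most 0.01 or 0.1; a deposited p-value of at most 0.05 gave 2. The median log2 fold change of 0.28 stayed between 0.27 and 0.29 under 6 settings, and was 0.10 when untested members were counted, because 9 of those are listed at 0. The 4-fold rule left 1 positive and 1 negative member in place of 6 and 3. Leaving out 1 of the pair with near-equal values, a setting chosen after seeing the data, left 2 members at least 2-fold negative.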
